A study of Mus musculus with 7 samples.

Results

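The genes described here carry out the central steps of glutamine and glutamate metabolism. They were the 9 genes Glul, Glud1, Got1, Got2, Gpt2, Oat, Slc1a5, Slc38a1 and Slc1a3, found by symbol among the 49382 gene rows of the expression table, and each had 1 row. Levels are in TPM, the transcript abundance that expresses a gene as a share of its library after correction for transcript length. All 9 were among the 12909 genes whose mean over the libraries reached 2 TPM, called kept genes from here on. Levels can be compared between genes on the TPM scale.

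Glutamine is the most abundant free amino acid in the circulation and is consumed in large amounts by cultured fibroblasts. It enters cells through sodium-coupled carriers, loses its amide nitrogen to become glutamate, and glutamate then gives its amino group to other carbon skeletons or is oxidised to the tricarboxylic acid cycle intermediate 2-oxoglutarate. Glutamine synthetase puts the amide back, which allows a cell to make glutamine when none is supplied.

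The libraries came from wild type mouse embryonic fibroblasts (MEFs), grown from embryos of days 13.5 to 14.4 after the head and red tissue had been removed and used at passages 3 to 7. The 6 stress conditions were glutamine-free DMEM for 10 h, glucose-free DMEM for 10 h, hypoxia in a chamber at 0.1% oxygen for 10 h, 1 µM thapsigargin for 10 h as ER stress, 10 µM sodium arsenite for 3 h as oxidative stress, and 100 mM added NaCl for 3 h as osmotic stress. Thapsigargin empties the calcium store of the endoplasmic reticulum (ER), and arsenite reacts with protein thiols. A single control library was shared by all 6 comparisons, and the labels give neither its time of harvest nor whether its medium was changed. The study's methods describe sorting of MEFs to remove macrophages by CD45, CD11b and F4/80, while the labels of these libraries mention no sort. The complete medium contained 2 mM glutamine and 10% serum, and whether the glutamine-free medium carried serum is not given in the labels. Each condition had 1 library, so no replicate error and no test could be given. A 3 h and a 10 h treatment also differed in time, and stress and time cannot be told apart there. In bulk cultures, a loss of cells of a type and a lower level per cell cannot be told apart either.

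Genes known to respond to the treatments were checked first. Hmox1, the haem oxygenase induced by arsenite, was highest in oxidative stress at 6055 TPM, against 266 TPM in the control. The ER chaperone gene Hspa5 was highest in ER stress at 12611 TPM, against 1165 TPM, and the hypoxia target Bnip3 was highest in hypoxia at 797 TPM, against 26.7 TPM. Akr1b3, the osmotically induced aldose reductase, was highest in osmotic stress at 575 TPM, against 90.5 TPM. The glucose-responsive gene Txnip was lower in glucose depletion, at 16.1 TPM against 70.7 TPM, and lower still in osmotic stress, at 7.22 TPM. Chac1, a gene of the amino acid response, was at 86.8 TPM without glutamine, against 26.2 TPM in the control. It was higher still in ER stress, at 224 TPM, so its rise was not particular to glutamine depletion. The summed level of 10 fibroblast markers ran from 6202 TPM in ER stress to 12862 TPM in hypoxia, with 11470 TPM in the control, and 3 of the 10 were more than 2-fold lower in ER stress. Since Glul and Slc1a3 are also abundant in glia, the 6 glial and neuronal markers were set beside them. Their sum lay between 24.2 and 39.6 TPM in 6 libraries and at 128 TPM in ER stress. Of that, Tubb3 alone made up 127 TPM, Aqp4 was at 0 in every library and Gfap was at or below 0.228 TPM. The 7 macrophage markers summed to between 7.92 and 16.9 TPM, with Adgre1, which encodes F4/80, at or below 0.110 TPM and Ptprc, which encodes CD45, at or below 0.280 TPM. The 5 muscle markers summed to 116 TPM in the control, 51.0 TPM in ER stress and 187 TPM in glucose depletion, nearly all of it from Acta1 and Des, which each fell more than 2-fold in ER stress. Endothelial markers summed to between 2.94 and 7.31 TPM, epithelial markers to between 4.04 and 11.8 TPM, and erythroid markers to at most 1.01 TPM. The part of these other cells in the results was not tested.

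Because several of the genes rose together in ER stress, the sequence before the start site is shown for the 2 aminotransferases that rose, Got1 and Gpt2, and for asparagine synthetase (Asns), a glutamine-consuming enzyme of the same pathway named after its values were seen. The motif searched was the C/EBP-ATF response element, TGATGNAA, on both strands of the window from 250 bases before to 50 bases after the start. This element is bound by ATF4 together with a C/EBP partner. The sequences are from RefSeq on GRCm38.p6 and are written 5′ to 3′ on the strand of the gene. The 250 bases before the start are printed in lower case, with each match in capitals. Got1 lies on the minus strand, and its 250 bases are chr19:43524606-43524855. Asns is also on the minus strand, with chr6:7693210-7693459, and Gpt2 is on the plus strand, with chr8:85492326-85492575.
Got1: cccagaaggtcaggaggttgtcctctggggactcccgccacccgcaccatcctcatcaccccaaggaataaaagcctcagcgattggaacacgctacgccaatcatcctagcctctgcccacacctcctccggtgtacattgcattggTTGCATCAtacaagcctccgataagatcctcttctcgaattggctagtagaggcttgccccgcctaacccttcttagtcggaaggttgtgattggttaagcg
Asns: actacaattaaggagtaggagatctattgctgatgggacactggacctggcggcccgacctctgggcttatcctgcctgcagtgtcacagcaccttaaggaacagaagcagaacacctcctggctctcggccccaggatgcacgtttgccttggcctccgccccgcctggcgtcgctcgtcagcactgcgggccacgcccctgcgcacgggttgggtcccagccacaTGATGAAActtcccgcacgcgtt
Gpt2: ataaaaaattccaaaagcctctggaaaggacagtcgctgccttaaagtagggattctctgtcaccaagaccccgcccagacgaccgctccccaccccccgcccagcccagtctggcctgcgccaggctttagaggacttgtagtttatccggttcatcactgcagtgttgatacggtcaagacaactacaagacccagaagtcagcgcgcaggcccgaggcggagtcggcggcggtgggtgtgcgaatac
The Got1 match begins 102 bases before the start and reads TTGCATCA, which is the motif on the opposite strand. The Asns match begins 23 bases before the start and reads TGATGAAA. Gpt2 had no match in this window. Promoter sequences were matched for 7 of the 9 genes, the exceptions being Slc1a5 and Slc38a1. Of the 7 windows, 1 held the motif, that of Got1. The motif occurred in 3.97% of all 32851 windows. Counted by gene, with a match in any window of the gene, it occurred in 2.54% of 9014 genes whose mean reached 2 TPM. Of 638 genes that were more than 2-fold higher in ER stress, 6.58% had it. The E-box CACGTG was present in 7.15% of all windows and the AP-1 site TGANTCA in 7.81%, and neither was found in the 7. By gene, the E-box was in 12.3% of those whose mean reached 2 TPM and in 15.2% of those higher in ER stress. For the AP-1 site these shares were 5.85% and 6.90%. With 7 windows, the absence of a motif cannot be set against the 1 match of Got1. The motifs do not overlap one another in these 3 sequences, and a match is a description of letters only.

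In the control library, 3 mitochondrial enzymes led. Oat stood at 195 TPM, Glud1 at 186 TPM and Got2 at 116 TPM, followed by Got1 at 57.4 TPM and the transporter Slc1a5 at 54.0 TPM. Slc38a1 at 30.7 TPM, Glul at 20.3 TPM, Gpt2 at 19.9 TPM and Slc1a3 at 15.5 TPM were the lowest. With 1 library each, no spread was available to separate neighbours such as Oat and Glud1 or Glul and Gpt2. The first 3 places were held by Oat, Glud1 and Got2 in every library except ER stress, where Got1 came first.

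**Figure D1:**
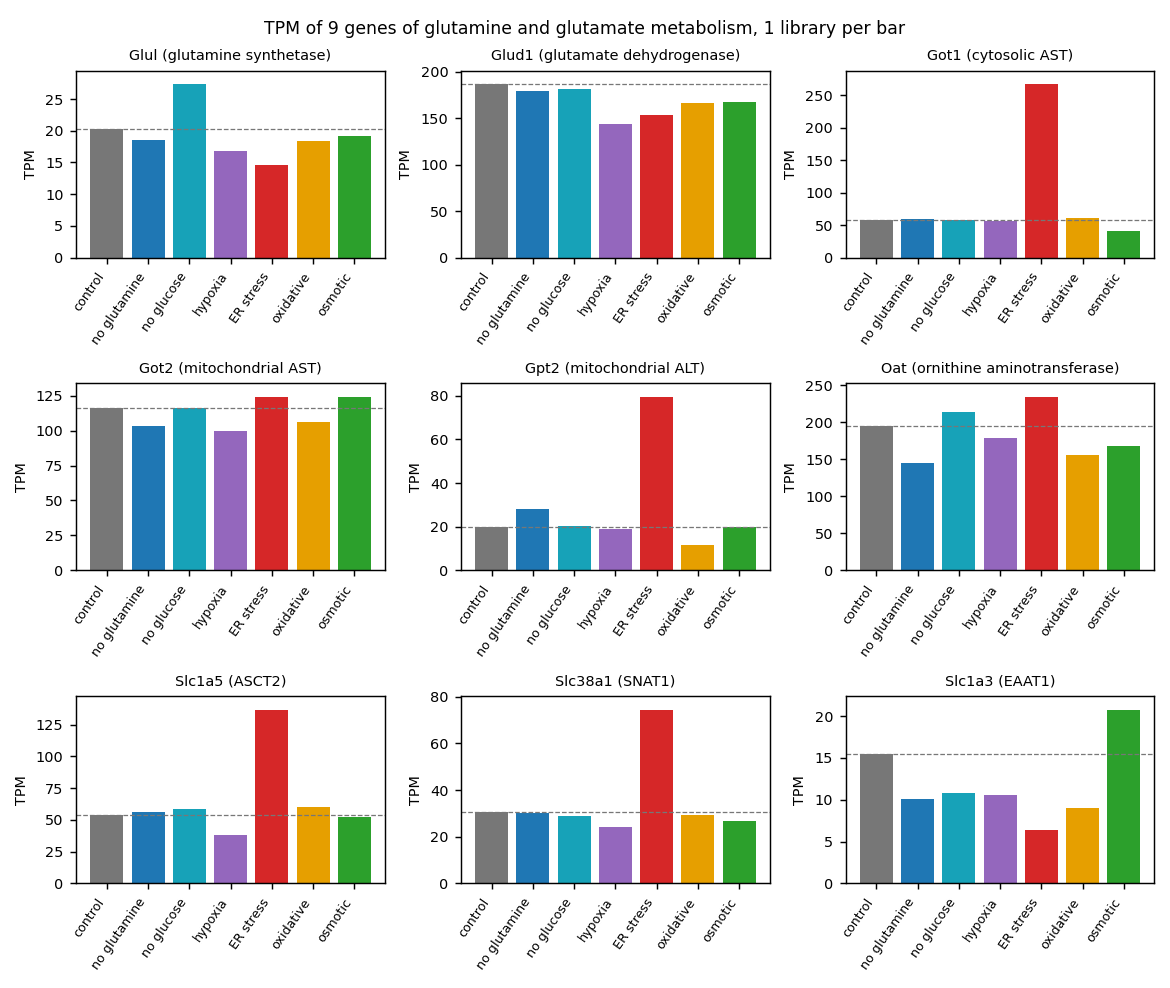
Level of each of the 9 genes in TPM, with 1 panel per gene on a linear axis of its own and 1 bar for each of the 7 libraries. The dashed line marks the control. Got1, Gpt2, Slc1a5 and Slc38a1 stand apart upwards in ER stress, where Got1 reaches 266 TPM, while Glud1 and Got2 stay within 1.29-fold and 1.24-fold over the 7 libraries.

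The first question was how these genes responded to removal of glutamine itself. None of the 9 was more than 2-fold higher or lower after 10 h in glutamine-free medium, where 3.21% of kept genes were more than 2-fold higher and 3.21% more than 2-fold lower. Changes are differences of log2(TPM + 1) from the control, a scale on which 2-fold is 1 and which understates the change of low genes. All 9 genes are protein coding, and among the 11305 protein-coding kept genes these shares were 1.89% and 1.87%. The differences of the 9 genes ran from -0.57 for Slc1a3 to 0.49 for Gpt2, with a median of -0.06, and the median of all kept genes was -0.09. Of the kept genes, 9.47% were as high as or higher than Gpt2 in this comparison, and 11.3% were as low as or lower than Slc1a3. For Glul, whose product makes glutamine, 45.4% of kept genes had a difference as low or lower.

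Glul encodes glutamine synthetase, which joins ammonia to glutamate and so makes glutamine. The level of Glul was 20.3 TPM in the control, 18.5 TPM without glutamine, 27.3 TPM without glucose, 16.9 TPM in hypoxia, 14.7 TPM in ER stress, 18.3 TPM in oxidative stress and 19.2 TPM in osmotic stress. Glucose depletion gave its highest level, and the difference of 0.41 on the log2(TPM + 1) scale stayed under 2-fold. Glutamine synthetase protein is also known to be controlled by degradation when glutamine is abundant, which transcript levels do not show.

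Glud1 encodes mitochondrial glutamate dehydrogenase, which oxidises glutamate to 2-oxoglutarate and ammonia. Glud1 was measured at 186 TPM in the control, 179 TPM without glutamine, 181 TPM without glucose, 144 TPM in hypoxia, 153 TPM in ER stress, 166 TPM in oxidative stress and 167 TPM in osmotic stress. The control was the highest of the 7 libraries and hypoxia the lowest, with a difference of -0.37 (log2). Oat encodes ornithine aminotransferase, which links glutamate to ornithine and proline in mitochondria. The level of Oat was 195 TPM in the control, 146 TPM without glutamine, 214 TPM without glucose, 179 TPM in hypoxia, 234 TPM in ER stress, 156 TPM in oxidative stress and 168 TPM in osmotic stress. Glutamine depletion gave its lowest level, at a difference of -0.42 (log2), and 18.5% of kept genes were as low or lower there.

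The aspartate aminotransferases exist as a cytosolic form, Got1, and a mitochondrial form, Got2, which together move reducing equivalents across the mitochondrial membrane and make aspartate from glutamate. Got1 stood at 57.4 TPM in the control, 58.8 TPM without glutamine, 57.8 TPM without glucose, 56.6 TPM in hypoxia, 266 TPM in ER stress, 60.4 TPM in oxidative stress and 41.2 TPM in osmotic stress. The ER stress library stood far above the other 6, which lay within 1.46-fold of each other. Got2 was listed at 116 TPM in the control, 103 TPM without glutamine, 116 TPM without glucose, 99.9 TPM in hypoxia, 124 TPM in ER stress, 106 TPM in oxidative stress and 124 TPM in osmotic stress. Got2 varied least of the 9 genes, and no library stood out. The ratio of Got1 to Got2 in TPM was therefore 0.494 in the control, 0.572 without glutamine, 0.334 in osmotic stress and 2.15 in ER stress, and ER stress was the only library of the 7 in which the cytosolic form had the higher level.

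Gpt2 encodes the mitochondrial alanine aminotransferase, which makes alanine and 2-oxoglutarate from pyruvate and glutamate. Its level was 19.9 TPM in the control, 28.3 TPM without glutamine, 20.3 TPM without glucose, 18.8 TPM in hypoxia, 79.3 TPM in ER stress, 11.7 TPM in oxidative stress and 20.0 TPM in osmotic stress. Gpt2 had the widest range of the 9 genes, 6.79-fold between oxidative and ER stress. Leaving ER stress aside, the range over the other 6 libraries was 2.42-fold, and glutamine depletion then had the highest level.

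Among the transporters, Slc1a5 encodes ASCT2, a sodium-dependent exchanger that brings glutamine in, and Slc38a1 encodes SNAT1, a sodium-coupled importer of glutamine. Slc1a5 was measured at 54.0 TPM in the control, 56.5 TPM without glutamine, 58.6 TPM without glucose, 38.3 TPM in hypoxia, 136 TPM in ER stress, 59.8 TPM in oxidative stress and 52.1 TPM in osmotic stress. Slc38a1 was at 30.7 TPM in the control, 30.0 TPM without glutamine, 28.7 TPM without glucose, 24.3 TPM in hypoxia, 74.2 TPM in ER stress, 29.2 TPM in oxidative stress and 26.5 TPM in osmotic stress. Both importers were highest in ER stress and lowest in hypoxia. Slc1a3 encodes EAAT1, also called GLAST, which takes up glutamate and aspartate rather than glutamine. The level of Slc1a3 was 15.5 TPM in the control, 10.1 TPM without glutamine, 10.8 TPM without glucose, 10.6 TPM in hypoxia, 6.33 TPM in ER stress, 9.03 TPM in oxidative stress and 20.7 TPM in osmotic stress. Slc1a3 was below the control in 5 of the 6 conditions and above it in osmotic stress, and ER stress was its lowest library.

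**Figure D2:**
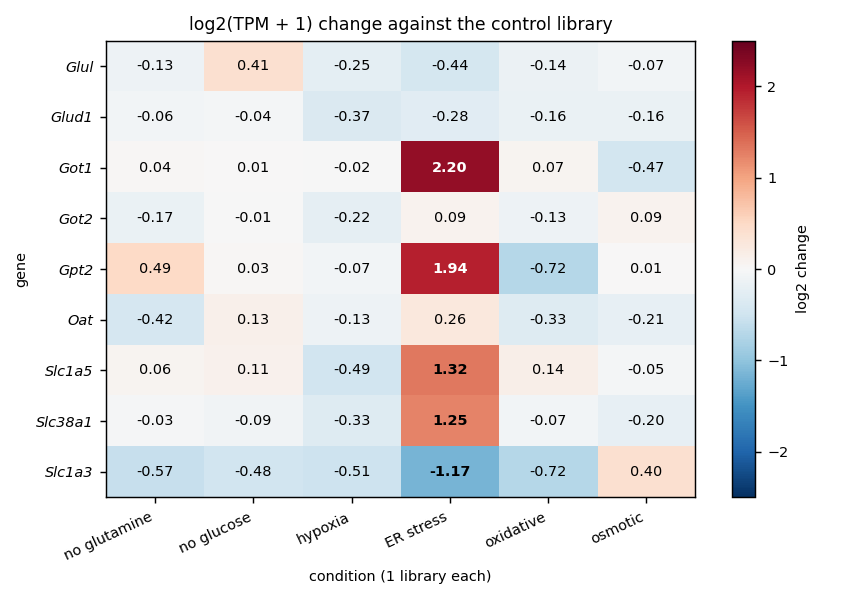
Change of each of the 9 genes (rows) in each condition (columns) as the difference of log2(TPM + 1) from the control library, with the value written in each cell and colour running from lower to higher. The ER stress column holds all 5 values past 2-fold, 4 of them higher and 1 lower.

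ER stress was the only condition of the 6 in which any of the 9 genes passed 2-fold. For 6 of them it also gave the largest difference, the exceptions being Glud1 and Got2, which differed most in hypoxia, and Oat, which differed most without glutamine. In ER stress 4 of the 9 rose more than 2-fold, where 8.60% of kept genes did, and 1 fell more than 2-fold, where 11.0% did. Among protein-coding kept genes the shares were 7.09% and 9.79%. Got1 rose by 2.20 on the log2(TPM + 1) scale, a TPM ratio of 4.65, and 2.17% of kept genes were as high or higher. Gpt2 rose by 1.94 (log2), a TPM ratio of 3.99, and 2.56% of kept genes were as high or higher. Thus the cytosolic aspartate and the mitochondrial alanine aminotransferase were near the top of all kept genes. Slc1a5 rose by 1.32 and Slc38a1 by 1.25 (both log2), with TPM ratios of 2.52 and 2.42, and 4.85% and 5.52% of kept genes were as high or higher. Slc1a3 fell by 1.17 (log2) to a TPM ratio of 0.409, and 8.25% of kept genes were as low or lower. This fall was below 2-fold with a pseudocount of 5 TPM, at -0.85, and when the median of the 7 libraries replaced the control as reference, at -0.66. The other 4 genes, all enzymes, had differences of -0.44 for Glul, -0.28 for Glud1, 0.09 for Got2 and 0.26 for Oat. The 9 genes summed to 1088 TPM in ER stress and to 696 TPM in the control. Over the same libraries the fibroblast markers Lum, Col3a1 and Pdgfrb fell by 2.33, 2.07 and 1.15 (log2), and the part of that shift in these values was not tested.

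**Figure D3:**
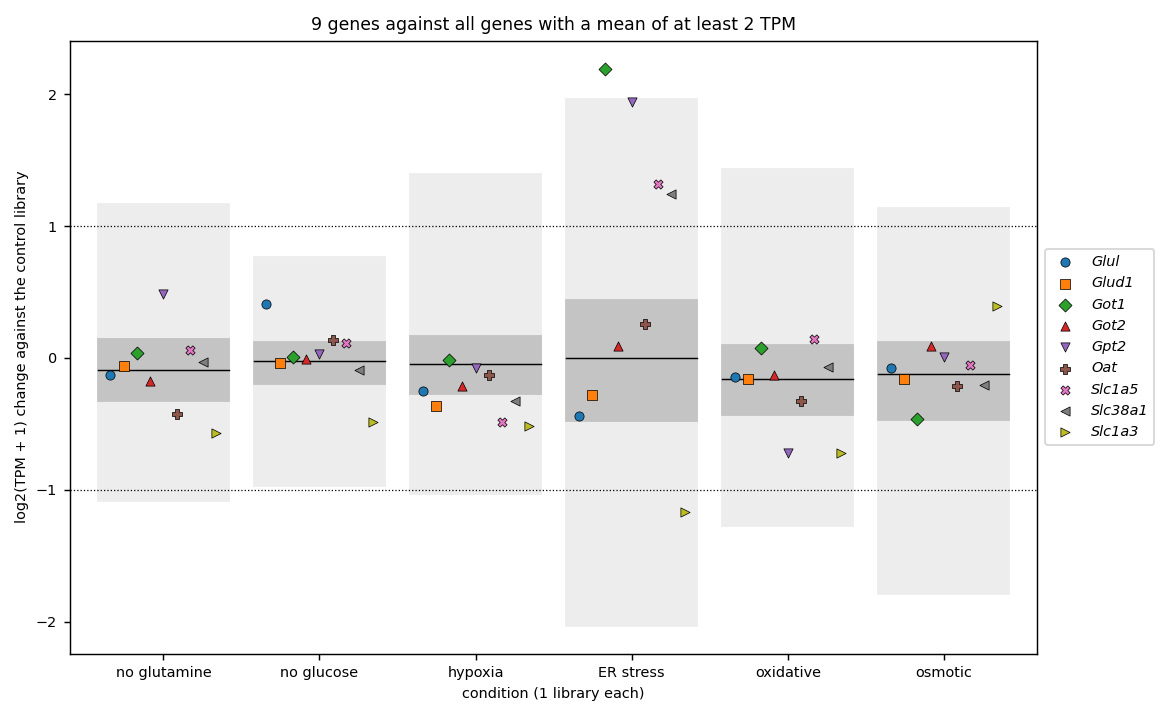
Change of the 9 genes, shown by symbol and colour, in each of the 6 conditions as the difference of log2(TPM + 1) from the control, over bands for all 12909 kept genes (dark band, middle 50%, light band, middle 95%, line, median) with dotted lines at 2-fold. In glutamine depletion all 9 lie inside the light band, and in ER stress Got1 lies above it.

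In the other conditions no member passed 2-fold. After glucose depletion, where 1.83% of kept genes were more than 2-fold higher and 2.41% more than 2-fold lower, the differences ran from -0.48 for Slc1a3 to 0.41 for Glul. Among protein-coding kept genes those shares were 0.442% and 0.602%. In hypoxia the shares of all kept genes were 3.57% and 2.64%, and of protein-coding ones 1.93% and 1.02%, and all 9 genes were below the control, from -0.51 for Slc1a3 to -0.02 for Got1, with a median of -0.25. The kept genes had a median of -0.05 in hypoxia, 55.5% of them lay below the control, and 8 of the 9 genes remained below 0 when this median was subtracted, Got1 being the exception. Slc1a5 had its lowest level there, with a difference of -0.49 (log2).

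Oxidative and osmotic stress lasted 3 h. In oxidative stress, where 3.94% of kept genes (1.79% of protein-coding ones) were more than 2-fold higher and 4.85% (3.46%) more than 2-fold lower, Gpt2 and Slc1a3 each had a difference of -0.72 (log2) and the other 7 lay between -0.33 and 0.14. In osmotic stress the shares were 3.08% and 8.76%, or 1.41% and 7.35% of protein-coding genes, and the differences ran from -0.47 for Got1 to 0.40 for Slc1a3. The median of all kept genes was -0.16 in oxidative and -0.12 in osmotic stress, and that of the 9 genes was -0.14 and -0.07. Relative to those shifts, 5 of the 9 genes were above and 4 below in oxidative stress, and likewise 5 and 4 in osmotic stress.

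The depleted media could be compared with each other without the shared control, since both were applied for 10 h. Between glutamine and glucose depletion no member passed 2-fold, where 3.12% of kept genes (1.49% of protein-coding ones) were more than 2-fold higher without glutamine and 2.37% (1.07%) more than 2-fold lower. Glul differed by -0.54 and Oat by -0.56 (log2), each being lower without glutamine, and Gpt2 differed by 0.46, being higher. Got2 differed by -0.17 and Slc1a3, low in both, by -0.09 (both log2), and Got1, Glud1, Slc1a5 and Slc38a1 differed by 0.03, -0.02, -0.05 and 0.06.

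The other genes of the pathway were set beside the 9 as lists, chosen with earlier results of these data known. The lists held glutamine-using enzymes such as the amidotransferases, aminotransferases and proline enzymes, amino acid transporters, and mitochondrial carriers with malate dehydrogenases and further enzymes. Of these 55 genes, 44 were kept. Without glutamine 1 of the 44 rose and 1 fell more than 2-fold, shares near the 3.21% of all kept genes in each direction, and the median was -0.14 (log2). Gfpt2, which uses glutamine to make glucosamine 6-phosphate for the hexosamine pathway, rose from 8.51 to 29.2 TPM (log2 change 1.67). The gene for a mitochondrial glutamate carrier, Slc25a22, fell from 35.7 to 17.2 TPM (log2 change -1.01). Its change was -0.93 once the median of all kept genes was subtracted, which is under 2-fold. Low levels of Slc25a22 were not limited to this library, with 17.6 TPM in oxidative stress, 18.5 TPM in osmotic stress and 21.7 TPM without glucose. It stood at 34.4 TPM in hypoxia and 43.6 TPM in ER stress. For 2 further genes, named after their values were seen, control and glutamine-free levels were 141 and 168 TPM for Asns and 102 and 106 TPM for the importer Slc38a2. In the transporter list none of the 12 kept genes passed 2-fold without glutamine, with a median of -0.01 (log2). Its 2 largest changes were rises, of Slc7a11 from 2.60 to 5.11 TPM and of Slc7a5 from 76.6 to 123 TPM.

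In ER stress 14 of the same 44 genes rose more than 2-fold, beside 8.60% of all kept genes, and 3 fell, beside 11.0%, with a median of 0.50 (log2). The transporters made up 6 of the 14, led by Slc3a2, the shared heavy chain of several exchangers, from 201 to 1454 TPM, and by the cystine-glutamate exchanger Slc7a11, from 2.60 to 18.5 TPM. The amino acid importer Slc38a4 was the 1 transporter of the list that fell, from 49.1 to 17.1 TPM. Among the aminotransferases and proline enzymes 5 of 12 kept genes rose, led by Kyat3, a kynurenine aminotransferase, from 4.37 to 19.1 TPM, and the cytosolic branched-chain aminotransferase Bcat1, from 109 to 358 TPM, and 1 fell, the proline-degrading enzyme Aldh4a1, from 18.1 to 7.61 TPM. Of the 11 kept glutamine-using enzymes 2 rose and 1 fell. The hexosamine enzyme Gfpt1 rose from 46.6 to 113 TPM, Asns rose from 141 to 317 TPM, and the CTP synthase Ctps2 fell from 47.0 to 17.6 TPM. Of the 9 carriers and mitochondrial enzymes 1 rose, Dld, the dihydrolipoamide dehydrogenase shared by several mitochondrial complexes, from 91.5 to 187 TPM.

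A list of 11 amino acid response genes, which holds Atf4, the upstream kinase gene Eif2ak4 (GCN2) and genes known mostly as ATF4 targets or partners, was kept in full. Without glutamine 2 of the 11 rose more than 2-fold and none fell, with a median of 0.31 (log2), where 3.21% of all kept genes rose and 3.21% fell. Atf3, a stress-induced transcription factor, rose from 3.02 to 21.3 TPM, and Chac1, which cleaves glutathione, from 26.2 to 86.8 TPM. The same pair rose in oxidative stress, to 88.3 and 69.7 TPM. In ER stress 7 of the 11 rose, beside 8.60% of all kept genes, and none fell, with a median of 1.20 (log2), led by Atf3 at 112 TPM and by Ddit3, which encodes CHOP, from 136 to 1870 TPM. Promoter windows were available for 11 of the 14 pathway genes that rose in ER stress and for 26 of the 30 that did not. The element printed for Got1 and Asns was present in 3 of these 11 genes and in 2 of these 26. In the amino acid response list it was present in 4 of the 6 genes with a window that rose and in 0 of the 4 that did not. These lists were partly composed of genes known as ATF4 targets and were chosen with earlier results of these data known.

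**Figure D4:**
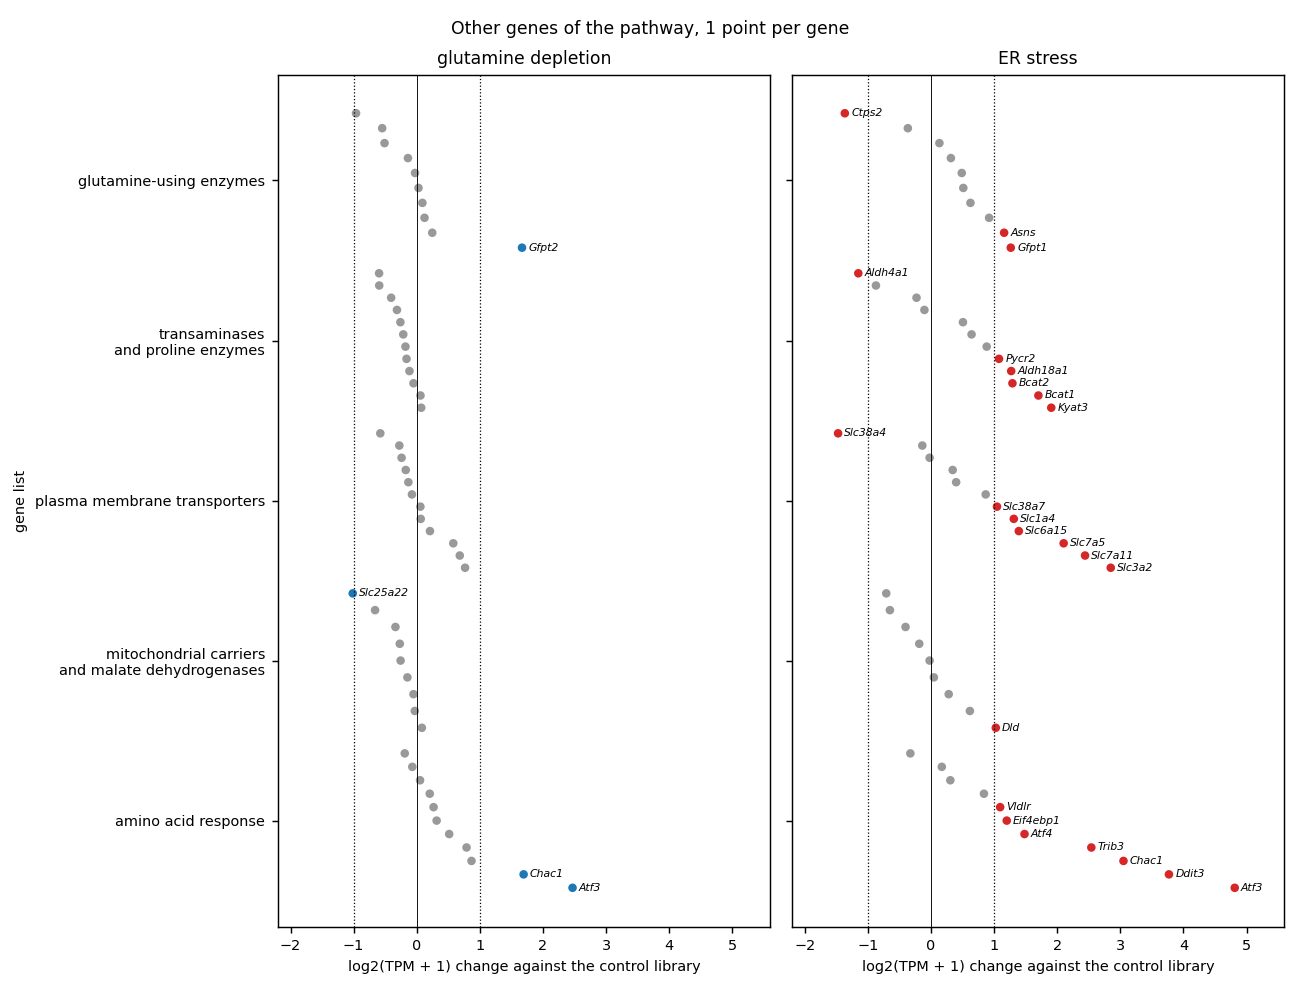
Change of the kept genes of the 5 pathway lists, 1 point per gene and sorted within its list, as the difference of log2(TPM + 1) from the control in glutamine depletion (left) and ER stress (right), with coloured and named points past 2-fold and dotted lines at 2-fold. Past 2-fold lie 4 genes on the left, and Atf3 has the highest value in each panel.

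The 5 genes that passed 2-fold in ER stress were also compared with all 4442 kept genes that passed 2-fold in at least 1 condition, by Pearson's r of log2(TPM + 1) over the 7 libraries, given as a description. Every closest gene named below also passed 2-fold in ER stress in the same direction, so these r values lean on that 1 library. For the closest genes and for the counts at 0.95, r was not computed without ER stress. The closest to Got1 were Emp2 (r = 0.996), Napb (0.993) and Pak3 (0.992), and 127 genes had an r of at least 0.95 with it. Gpt2 was closest to Ddx10 (r = 0.991) and to the aminoacyl-tRNA synthetase genes Lars (0.986) and Eprs (0.973), and 26 genes reached 0.95. Slc1a5 was closest to the pseudogene Gm21092 (r = 0.990), Slc25a28 (0.988) and Prdx6 (0.988), Slc38a1 to Nr2c2ap (r = 0.996), Kdm6a (0.995) and Kcnq5 (0.994), and Slc1a3 to Mtfr2 (r = 0.991), Eldr (0.967) and Aqp5 (0.961). Between the members, r of Got1 with Slc38a1 was 0.973 over 7 libraries and 0.401 over the 6 without ER stress, and r of Got1 with Gpt2 was 0.872 and -0.136. The importers Slc1a5 and Slc38a1 kept a higher value, 0.972 over 7 libraries and 0.849 without ER stress. This was not particular to the importers, since Glud1 with Slc38a1 had 0.907 without ER stress, against -0.244 over 7 libraries.

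The genes lie on 6 chromosomes of GRCm38, at chr1:153899944-153909723 for Glul, chr14:34310727-34345265 for Glud1, chr19:43499752-43524605 for Got1, chr8:95864134-95888547 for Got2, chr8:85492576-85527560 for Gpt2, chr7:132557478-132576398 for Oat, chr7:16781340-16798274 for Slc1a5, chr15:96571418-96642913 for Slc38a1 and chr15:8634124-8710764 for Slc1a3. Copies that could share reads were sought among the transcripts, and 8 had at least 90% identity over at least 300 bases, copies of Glul, Glud1, Got2 and Gpt2. Of these, 7 were in the table and the highest reached 0.660 TPM, far below the parent genes. Genes that overlap Glul on either strand stood at or below 0.178 TPM.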

How the data were processed

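Poly(A) RNA of 7 MEF cultures, 1 per condition, was made into stranded libraries and sequenced as paired 76-base reads. The authors quantified the reads with kallisto 0.43.1 at default settings against all GRCm38 cDNA, and the deposited TPM are gene sums of transcript values. The table holds no counts, so depth and counting error are unknown. Between 19819 and 21154 genes were above 0 TPM per library, and mitochondrially encoded genes made up 5.09 to 9.25%.

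From the deposited TPM, changes were computed as log2(TPM + 1) against the control, with a threshold of 2-fold as in the study's methods, over genes whose mean reached 2 TPM. Shares among protein-coding genes (GENCODE types) were added after seeing the data. With 1 library per condition no p-value was computed. The members and lists were chosen with earlier results of these data known. Named were the 9 genes, the pathway genes past 2-fold without glutamine, those past 2-fold among the 2 largest changes of each list in the other conditions, and the 3 genes most alike each member past 2-fold. Outside this rule, Asns, Slc38a2, Slc38a4, Aldh4a1, Slc7a5 and Atf4 were named after their values were seen. Promoters were RefSeq sequences on GRCm38.p6, coordinates came from the GENCODE annotation of GRCm38, and copies were found with blastn 2.17.0. Python 3.11.15 and pandas 2.3.3 were used, and the steps were tested on simulated data. The values of 1 gene of the pathway lists are not reported here, and the list counts include it.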

Additional observations from a re-analysis of the deposited data

How the results depend on the processing

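Settings tried in turn were a pseudocount of 0.1 or 5 TPM, no filter or a minimum mean of 10 TPM, thresholds of 1.5-fold and 3-fold, centring, leaving out mitochondrially encoded genes, and the median of the 7 libraries as reference. Of the 124 counts of members recomputed under them, 119 stayed as reported. Many of these could not have changed, so 119 of 124 overstates how far the counts were tested. Every member had a mean above 10 TPM, the lowest being Slc1a3 at 11.9 TPM, so neither filter setting could alter a count. A count of 0 at 2-fold had to stay 0 at 3-fold. Centring could not alter the ER stress counts, because the median of all kept genes was 0 there. The count of members lower in ER stress was 0 with a pseudocount of 5 TPM, 0 at 3-fold and 0 against the median reference, and the member concerned was Slc1a3. The count higher in ER stress was 2 at 3-fold, and the count lower in oxidative stress was 2 at 1.5-fold, Gpt2 and Slc1a3. The log2 differences in ER stress ranged from 2.12 to 2.21 for Got1, 1.76 to 1.99 for Gpt2, 1.26 to 1.33 for Slc1a5 and 1.15 to 1.31 for Slc38a1.

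The shares of all kept genes past 2-fold moved more. With a pseudocount of 5 TPM they were 5.80% higher and 6.03% lower in ER stress and 1.93% and 1.42% without glutamine. Centring on the median gave 3.69% and 2.47% without glutamine, 4.75% and 3.20% in oxidative stress, and 3.64% and 7.08% in osmotic stress. No paired analysis was possible because each condition had 1 library. Without replicates, differences of the size seen without glutamine cannot be separated from the variation between cultures.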

Other observations

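Other genes of the pathway passed 2-fold in conditions where none of the 9 did. In osmotic stress Slc38a2, which encodes the SNAT2 importer of glutamine and other neutral amino acids, rose from 102 to 478 TPM, while its relative Slc38a1 was at 30.7 and 26.5 TPM. In the same library Chac1 fell from 26.2 to 4.28 TPM and Trib3, a pseudokinase gene induced by ATF4, from 30.8 to 6.96 TPM. Atf4 itself was higher in osmotic stress, at 458 TPM against 276 TPM in the control, a change of 0.73 (log2). The part of ATF4 in these falls was not tested. Of the 11 amino acid response genes 4 fell more than 2-fold, where 8.76% of all kept genes did, and 1 rose, where 3.08% did. Nadsyn1, the glutamine-dependent NAD synthetase, fell from 7.18 to 2.23 TPM there, and the purine synthesis gene Pfas from 10.5 to 4.65 TPM, a change of -1.03 (log2) that was -0.91 after the median of all kept genes was subtracted.

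In oxidative stress Gfpt2 rose from 8.51 to 30.7 TPM, close to its level without glutamine, and Slc7a11 rose from 2.60 to 15.7 TPM. Of the amino acid response genes Atf3 rose there from 3.02 to 88.3 TPM and Chac1 from 26.2 to 69.7 TPM. These were 2 of 11, where 3.94% of all kept genes rose more than 2-fold. In hypoxia Vldlr, a lipoprotein receptor gene, rose from 15.6 to 85.9 TPM and Trib3 from 30.8 to 71.1 TPM, while the amino acid exchanger gene Slc7a6 fell from 62.7 to 28.4 TPM. After glucose depletion none of the 44 kept pathway genes and none of the 11 amino acid response genes passed 2-fold. Of all kept genes 1.83% were more than 2-fold higher there and 2.41% more than 2-fold lower.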
